A study of Mus musculus with 9 samples.

Results

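The 50 genes described here act in G2 phase and mitosis, from entry into mitosis to the separation of daughter cells. They were taken by gene symbol from a list that was not computed from the measured values but was chosen with earlier results of these data known. All 50 were found among the 24008 genes listed with read counts in liver. RNA was sequenced from the livers of 9 male mice with nonalcoholic steatohepatitis (NASH), 3 in each of 3 groups, with 1 library per mouse. The Flox group, labelled WT, carried the floxed IRF4 allele. F4MKO mice lacked IRF4, a transcription factor, in skeletal muscle after crossing Myl-Cre with IRF4 flox/flox mice. F4MKO + FSTL1 mice were F4MKO mice given an AAV8 vector in the gastrocnemius muscle, in which the muscle creatine kinase (MCK) promoter drove FSTL1, a secreted protein made in muscle and other tissues. According to the study's methods, Flox and F4MKO mice received AAV-GFP at that site, whereas their labels mention no vector. All groups shared the C57BL/6J background and a diet high in fat, carbohydrate and cholesterol, given with a solution of fructose and glucose. The study describes its mice as 8 weeks old, and gives this age at the start of the diet only for wild-type mice of another experiment. Livers were taken 4 weeks after the virus. The methods give the diet before the virus as 24 weeks in one place and 12 weeks in another. The liver itself was not targeted, so liver counts check neither the deletion nor the vector. Irf4 had 131, 132 and 101 counts in Flox libraries, 120, 128 and 130 in F4MKO libraries, and 10, 92 and 116 in F4MKO + FSTL1 libraries. Replicate 1 of F4MKO + FSTL1 was far below the other libraries in this gene. Fstl1 had 138, 186 and 147 counts in Flox livers, 456, 234 and 284 in F4MKO livers, and 114, 67 and 83 in F4MKO + FSTL1 livers. By qPCR, the study reports that liver Fstl1 mRNA did not change after the vector.

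Cells pass from G2 into mitosis when cyclin B activates the kinase Cdk1. Kinetochores then attach chromosomes to the spindle, a checkpoint holds back the anaphase-promoting complex (APC/C) until attachment is complete, and cytokinesis divides the cell. Genes of this programme are switched on together late in the cell cycle, and the DREAM and MuvB complexes with B-Myb and FoxM1 act at cell cycle homology region (CHR) and CCAAT elements in many of their promoters. Most hepatocytes of an adult liver rest outside the cell cycle, while injury, inflammation and resection bring liver cells back into it.

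Libraries held between 20656976 and 24322984 counts on genes, and between 18737 and 20203 genes had at least 1 count. Hepatocyte genes dominated every library, and the sum over 12 hepatocyte markers ran from 86749 to 126040 CPM (the usual depth-scaled read count, with library sizes set by TMM factors). Replicate 1 of the F4MKO group lay at the low end of that range, while the other libraries lay between 105537 and 126040 CPM. It also had the highest sum over 8 cholangiocyte markers, at 457 CPM against 54.2 to 243 CPM elsewhere, and the highest TMM factor, at 1.17. Where this library moved a result on the mitotic genes, the value without it is given as well. Xist had at most 3 counts and the Y-linked Eif2s3y and Ddx3y were expressed in every library, as in male animals. In whole liver, fewer dividing cells and less of these RNAs per cell cannot be told apart.

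The mitotic genes were most abundant in F4MKO livers and scarcest in F4MKO + FSTL1 livers, with Flox livers between them. Their summed level was 135, 182 and 153 CPM in Flox libraries, 220, 193 and 204 CPM in F4MKO libraries, and 93.5, 101 and 116 CPM in F4MKO + FSTL1 libraries. No library of one group reached into the range of another. The group means were 157 ± 23.8 CPM in Flox, 206 ± 13.5 CPM in F4MKO and 103 ± 11.6 CPM in F4MKO + FSTL1 livers (SD, n = 3 mice each). Pttg1, Spc24 and Spc25 had the highest levels, and they made up 34.5 to 48.0% of the sum in Flox livers, 23.7 to 32.0% in F4MKO livers and 59.8 to 64.4% in F4MKO + FSTL1 livers. Without these 3 genes, which were set aside after their values were seen, the sums were 92.3 ± 24.8, 148 ± 17.7 and 39.6 ± 6.09 CPM (SD, n = 3 each).

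Comparing F4MKO + FSTL1 with F4MKO livers asks what FSTL1 from muscle changed in mice without muscle IRF4. Of the 50 genes, 49 had enough counts to be tested, and 45 were lower in F4MKO + FSTL1 livers at an adjusted p under 0.05 and a fold change above 1.5 (edgeR's quasi-likelihood test, Benjamini-Hochberg adjustment over 14379 genes). Of all tested genes, 11.2% were called lower by this rule. Cdc25c, Ndc80, Kif15 and Kif18b are among the 45, but they passed the filter on low counts only through the F4MKO group. Their calls therefore give no separate support. With a filter blind to the groups, all 50 were tested and 46 were called lower, against 10.9% of tested genes. The groups did not overlap for 47 of the 50 genes, with F4MKO + FSTL1 lower, against 21.1% of tested genes. At an unadjusted p under 0.05, 47 were lower, against 19.5% of tested genes. Their median log2 fold change was -2.19, with or without setting genes near 0 counts at their bound, while the median over all tested genes was 0.01. The 4 tested genes that were not called were Aurka, Pttg1, Spc24 and Spc25. Leaving out each of the 9 libraries in turn gave between 40 and 45 called genes, with 41 without replicate 1 of F4MKO, and 40 genes were called in every such fit. Cdc25c, Ndc80, Kif15 and Kif18b are among these 40 and lend the count no support. Nek2 was called in 2 of these 9 fits, Smc2 in 6, and Cenpa, Kif20a and Cep55 in 7 each.

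Comparing F4MKO with Flox livers asks what loss of muscle IRF4 changed in the liver. The values pointed upward for 48 of the 50 genes, with a median log2 fold change of 0.69 against a median close to 0 over all tested genes, and Pttg1 and Spc25 were the exceptions. No gene passed the test with adjustment, a rule that called 0.202% of all tested genes higher. The smallest adjusted p was 0.0583, for Ube2c (from the same edgeR fit). At an unadjusted p under 0.05, 25 genes were higher and 1, Pttg1, was lower, against 9.35% of tested genes higher. The groups did not overlap for 28 genes with F4MKO higher, against 11.7% of tested genes. By DESeq2, 4 genes were called higher, against 1.06% of tested genes, among them Top2a, Prc1 and Nusap1 with adjusted p-values of 0.00746, 0.00859 and 0.0420. The count at an unadjusted p under 0.05 fell to 9 without replicate 1 of F4MKO, 11 without replicate 1 of Flox and 15 without replicate 3 of Flox, and it was 33 without replicate 2 of Flox. The median log2 fold change was 0.58 without replicate 1 of F4MKO and 1.04 without replicate 2 of Flox.

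F4MKO + FSTL1 livers also lay below Flox livers for 49 of the 50 genes, with a median log2 fold change of -1.37. Only Ccnb1 was called lower (adjusted p = 0.0469 in the same edgeR fit), and it was the single gene so called among all those tested, 0.00695% of them. At an unadjusted p under 0.05, 43 genes were lower, against 9.12% of tested genes. The groups did not overlap for 42 genes, with F4MKO + FSTL1 lower, against 10.7% of tested genes. DESeq2 called 26 genes lower, against 0.975% of tested genes, and edgeR without a filter on low counts called 28, against 1.24%, so the number that passed depends on the method. The call on Ccnb1 was lost without replicate 2 of Flox, replicates 1 or 3 of F4MKO, or replicates 1 or 2 of F4MKO + FSTL1, with adjusted p-values from 0.0672 to 0.187. Without replicate 1 of Flox 6 genes were called, against 0.0546% of tested genes, and without replicate 3 of F4MKO + FSTL1 11 were called, against 0.518%. The 3 comparisons share libraries, so their values are given side by side and are not independent of each other.

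**Figure D1:**
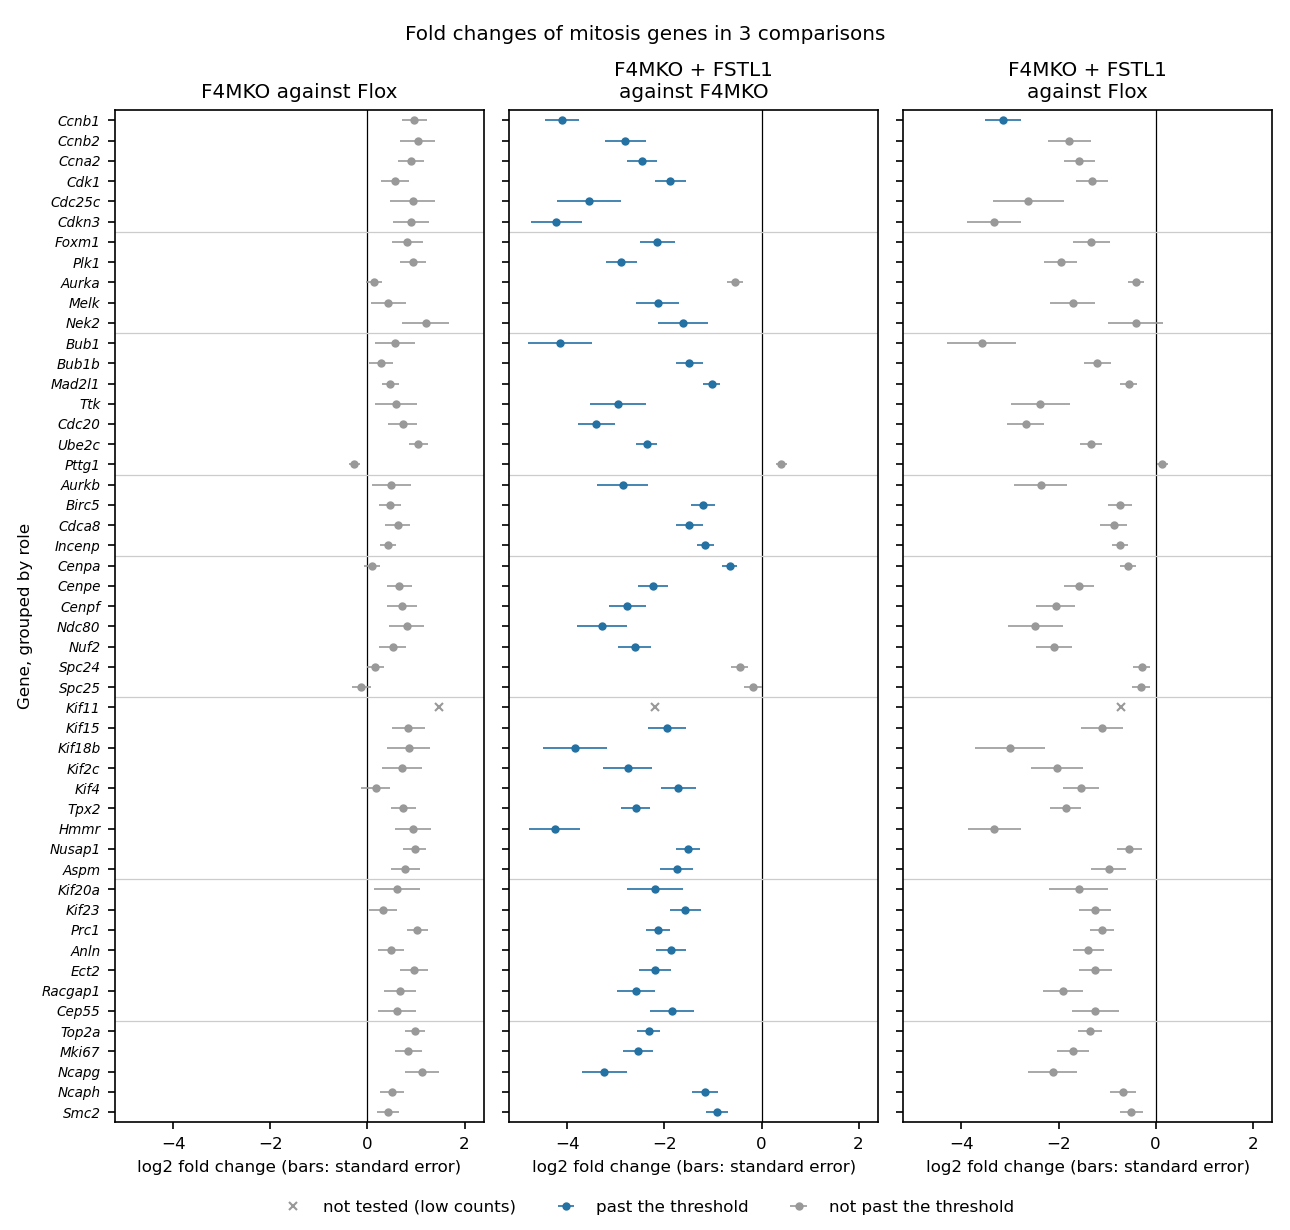
Log2 fold change of each gene in each comparison, 1 panel per comparison, with bars of 1 standard error, and genes in rows grouped by role. Blue points passed the threshold (adjusted p under 0.05 and fold change above 1.5), grey points did not, and the cross is Kif11, which was not tested. In F4MKO + FSTL1 against F4MKO livers 45 points are blue, all left of 0, and the points of Cdc25c, Ndc80, Kif18b and Bub1 are fitted values of groups near 0 counts.

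The livers of 1 group did not carry these transcripts evenly. Replicate 1 of F4MKO was the highest of all 9 libraries for 36 of the 50 genes, a place it held for 20.6% of tested genes. Within Flox, replicate 2 was highest for 41 genes, against 31.9% of tested genes, and replicate 1 was lowest for 39, against 34.2%. The summed level without Pttg1, Spc24 and Spc25 was accordingly 70.1 CPM in replicate 1, 119 CPM in replicate 2 and 87.8 CPM in replicate 3 of Flox. Replicate 3 of F4MKO + FSTL1 was the highest in its group for 34 genes, against 39.7% of tested genes, and its summed level of 46.6 CPM lay above 36.4 and 35.9 CPM in replicates 1 and 2.

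**Figure D2:**
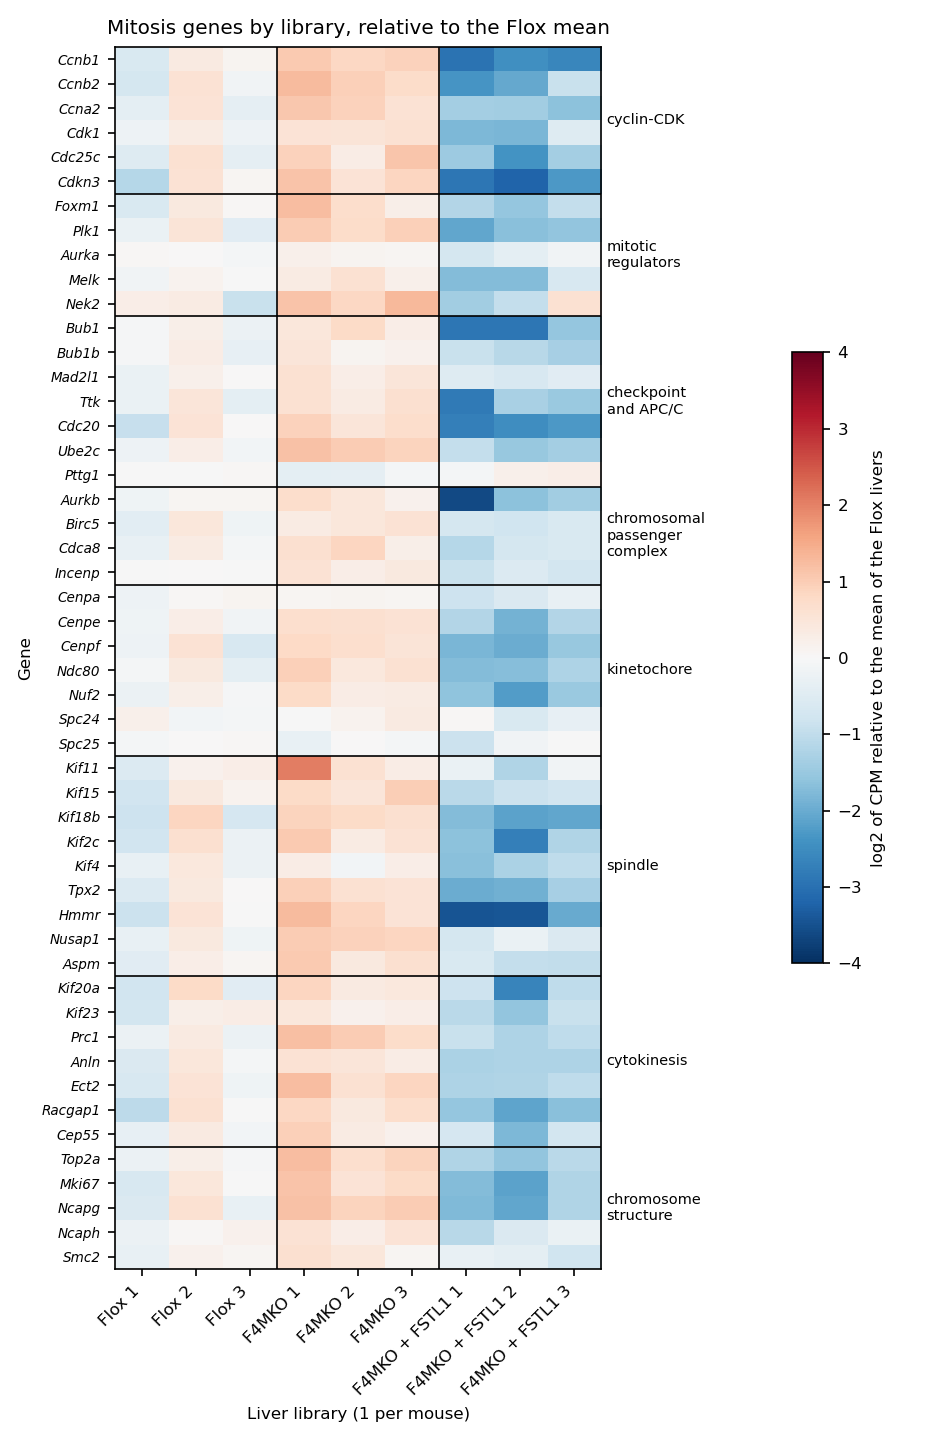
Level of each of the 50 genes (rows, grouped by role) in each of the 9 libraries (columns), as log2 of CPM with 0.1 CPM added before the log, relative to the mean of the Flox livers. Red is above and blue below that mean. The 3 F4MKO columns are red and the 3 F4MKO + FSTL1 columns blue in most rows, and the rows of Aurka, Pttg1, Spc24 and Spc25 are pale.

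Promoter sequence was read to see what the genes share besides their role. RefSeq promoter windows of GRCm38.p6, from 250 bases before to 50 after each annotated start, were found for 42 of the 50 genes. The CHR, searched on both strands as TTTGAA or TTCGAA, was present in 32 of 42 genes (76.2%), against 21.7% of all 27025 genes with a window. CCAAT was present on either strand in 30 of 42 (71.4%), against 41.1% of all genes, and at 2 or more places in 21 of 42, against 13.3% of all genes. Both CHR and CCAAT were present in 27 of 42 (64.3%), against 8.6% of all genes. The E2F-type core GGCGC was present in 28 of 42 (66.7%), against 39.4%. The mitotic genes lie on 17 chromosomes, with 8 of them on chromosome 2. In the 150 bases up to the start alone, CHR was present in 33.3% of the genes, against 11.2% of all genes, and both elements in 23.8%, against 2.8%. These letters are matches only, and occupancy was not measured.

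Windows of 8 genes are shown as annotated, 5′ to 3′ on the strand of the gene, with every CHR and CCAAT match in capitals on either strand (ATTGG and TTCAAA are matches on the opposite strand). Ccnb2, Cdk1, Hmmr, Cdkn3 and Ube2c were called lower in F4MKO + FSTL1 against F4MKO livers and hold both elements. Ccnb1, also called, has 2 CCAAT matches and no CHR. Spc25, which did not pass the test, holds a CHR and 2 CCAAT matches, and Pttg1, which was higher, holds neither.
Ccnb2 (chr9:70421505-70421804, minus strand): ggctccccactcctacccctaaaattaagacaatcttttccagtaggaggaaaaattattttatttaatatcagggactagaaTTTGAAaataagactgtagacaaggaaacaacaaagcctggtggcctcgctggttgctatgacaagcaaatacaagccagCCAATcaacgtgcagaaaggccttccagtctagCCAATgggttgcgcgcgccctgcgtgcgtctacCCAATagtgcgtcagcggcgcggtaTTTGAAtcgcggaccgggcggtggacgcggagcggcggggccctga
Cdk1 (chr10:69352863-69353162, minus strand): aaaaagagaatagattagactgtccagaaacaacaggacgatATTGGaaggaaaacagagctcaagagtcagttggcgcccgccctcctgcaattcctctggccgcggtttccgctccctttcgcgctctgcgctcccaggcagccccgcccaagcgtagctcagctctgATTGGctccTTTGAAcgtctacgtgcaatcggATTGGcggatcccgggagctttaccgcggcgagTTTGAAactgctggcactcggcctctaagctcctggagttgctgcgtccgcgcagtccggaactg
Hmmr (chr11:40733388-40733687, minus strand): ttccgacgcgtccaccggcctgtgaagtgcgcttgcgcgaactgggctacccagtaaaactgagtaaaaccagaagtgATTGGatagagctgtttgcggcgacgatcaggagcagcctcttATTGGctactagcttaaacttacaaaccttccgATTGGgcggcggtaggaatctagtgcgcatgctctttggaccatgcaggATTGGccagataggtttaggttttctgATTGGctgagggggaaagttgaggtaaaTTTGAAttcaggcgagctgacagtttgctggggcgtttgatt
Cdkn3 (chr14:46760291-46760590, plus strand): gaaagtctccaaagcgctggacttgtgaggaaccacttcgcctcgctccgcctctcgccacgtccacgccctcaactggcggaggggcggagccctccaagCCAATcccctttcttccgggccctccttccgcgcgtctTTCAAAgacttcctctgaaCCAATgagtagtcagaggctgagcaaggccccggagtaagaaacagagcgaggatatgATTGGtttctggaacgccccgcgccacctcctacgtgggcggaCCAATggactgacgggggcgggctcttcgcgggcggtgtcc
Ube2c (chr2:164769679-164769978, plus strand): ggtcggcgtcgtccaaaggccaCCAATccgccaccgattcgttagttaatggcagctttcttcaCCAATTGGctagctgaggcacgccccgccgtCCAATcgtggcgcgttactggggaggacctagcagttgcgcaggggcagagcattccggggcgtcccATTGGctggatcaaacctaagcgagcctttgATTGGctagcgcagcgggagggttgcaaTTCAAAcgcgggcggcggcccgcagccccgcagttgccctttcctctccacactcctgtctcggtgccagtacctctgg
Ccnb1 (chr13:100786437-100786736, minus strand): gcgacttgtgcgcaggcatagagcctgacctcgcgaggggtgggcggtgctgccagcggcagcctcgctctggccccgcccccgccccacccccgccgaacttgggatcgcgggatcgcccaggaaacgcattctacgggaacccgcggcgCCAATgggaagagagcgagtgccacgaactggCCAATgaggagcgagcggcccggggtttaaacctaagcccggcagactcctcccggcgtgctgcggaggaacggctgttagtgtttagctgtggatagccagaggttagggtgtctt
Spc25 (chr2:69206164-69206463, minus strand): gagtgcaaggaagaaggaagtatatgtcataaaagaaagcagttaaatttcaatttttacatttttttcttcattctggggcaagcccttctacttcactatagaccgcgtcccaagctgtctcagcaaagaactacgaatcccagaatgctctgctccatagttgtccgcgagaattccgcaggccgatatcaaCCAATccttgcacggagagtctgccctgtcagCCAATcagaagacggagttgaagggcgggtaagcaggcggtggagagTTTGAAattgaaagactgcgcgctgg
Pttg1 (chr11:43425932-43426231, minus strand): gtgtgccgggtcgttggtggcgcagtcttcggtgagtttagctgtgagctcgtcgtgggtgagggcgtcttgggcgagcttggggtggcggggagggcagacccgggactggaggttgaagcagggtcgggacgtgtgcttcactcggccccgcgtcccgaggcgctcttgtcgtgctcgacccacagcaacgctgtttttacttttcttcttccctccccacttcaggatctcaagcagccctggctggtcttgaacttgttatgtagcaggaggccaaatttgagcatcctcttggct

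Genes with and without these matches overlapped in their change. The 27 genes with both elements had a median log2 fold change of -2.33 in F4MKO + FSTL1 against F4MKO livers, from -4.26 to -0.18, and the 7 with neither, Birc5, Mad2l1, Melk, Ncaph, Nuf2, Nusap1 and Pttg1, had a median of -1.21, from -2.62 to 0.41. Of those 7 genes, 6 were called lower and Pttg1 was not. No test was made of the difference between these ranges.

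The cyclin and Cdk1 module, which drives entry into mitosis, fell in F4MKO + FSTL1 livers as a whole. All 6 of its genes were called lower than in F4MKO livers. Cdc25c, among them, passed the filter on low counts only through the F4MKO group. In F4MKO against Flox livers all 6 had values above 0 on the log2 scale, with a median of 0.92, and none was called. Ccnb1 encodes cyclin B1, the partner of Cdk1 at mitotic entry. It had 25, 56 and 43 counts in Flox libraries, 106, 77 and 87 in F4MKO libraries, and 3, 5 and 4 in F4MKO + FSTL1 libraries. No group overlapped with another, and the F4MKO + FSTL1 libraries were close to 0. Its log2 fold change was -4.12 (SE 0.35, adjusted p = 0.00034) against F4MKO livers, about 17.7-fold lower, and -3.15 (SE 0.37, adjusted p = 0.0469) against Flox livers. In F4MKO against Flox livers it was 0.97 (SE 0.25, adjusted p = 0.106).

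Ccnb2, the second B-type cyclin, had 31, 85 and 47 counts in Flox, 162, 110 and 99 in F4MKO, and 8, 10 and 23 in F4MKO + FSTL1 libraries. Each F4MKO liver lay above each Flox liver, and each F4MKO + FSTL1 liver lay below both. Ccnb2 fell by 2.81 on the log2 scale (SE 0.42, adjusted p = 0.0019) in F4MKO + FSTL1 against F4MKO livers. Ccna2, cyclin A2, which acts from S phase to early mitosis, had 39, 84 and 40 counts in Flox, 142, 108 and 87 in F4MKO, and 18, 17 and 13 in F4MKO + FSTL1 libraries. Replicate 2 of Flox came close to replicate 3 of F4MKO, and the F4MKO + FSTL1 libraries lay apart from the rest. In the same comparison Ccna2 fell by 2.47 (SE 0.31, adjusted p = 0.00122). Cdk1, the mitotic kinase itself, had 70, 113 and 71 counts in Flox, 152, 126 and 140 in F4MKO, and 21, 20 and 48 in F4MKO + FSTL1 libraries. Replicate 3 of F4MKO + FSTL1 stood above the other two of its group and still lay below every Flox library. Cdk1 fell by 1.88 on the log2 scale (SE 0.32, adjusted p = 0.00324) against F4MKO livers.

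Cdkn3, a phosphatase that acts on Cdk1 and Cdk2, had among the largest changes. Its counts were 16, 63 and 40 in Flox, 108, 60 and 78 in F4MKO, and 3, 2 and 5 in F4MKO + FSTL1 libraries. Flox and F4MKO overlapped through replicate 2 of each, and F4MKO + FSTL1 lay far below both. Against F4MKO livers the log2 fold change was -4.23 (SE 0.53, adjusted p = 0.00117). Cdc25c, the phosphatase that removes inhibitory phosphates from Cdk1, had 2, 0 and 2 counts in F4MKO + FSTL1 libraries against 25, 13 and 26 in F4MKO libraries, at least 5.59-fold lower when each F4MKO + FSTL1 library is set at a floor of 3 counts. The genes at this floor, Cdc25c, Bub1, Ndc80 and Kif18b, are named because of their low counts, after the values were seen. Cdc25c passed the filter on low counts only through the F4MKO group, as did Ndc80, Kif15 and Kif18b, so their passing already required a higher level there.

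Among mitotic regulators, 4 of 5 were called lower in F4MKO + FSTL1 against F4MKO livers, and the median log2 fold change of the 5 was -2.14. Plk1 encodes the polo-like kinase that works from mitotic entry to cytokinesis. It had 35, 68 and 31 counts in Flox, 112, 78 and 95 in F4MKO, and 8, 11 and 11 in F4MKO + FSTL1 libraries. All 3 groups were apart. Plk1 was 7.46-fold lower in F4MKO + FSTL1 than in F4MKO livers (log2 fold change -2.89, SE 0.32, adjusted p = 0.000829), and its value in F4MKO against Flox livers was 0.94 (SE 0.26, adjusted p = 0.123). Foxm1, a transcription factor of G2 and mitotic genes, had 23, 52 and 37 counts in Flox, 110, 64 and 48 in F4MKO, and 14, 10 and 15 in F4MKO + FSTL1 libraries. Flox and F4MKO overlapped, and replicate 1 of F4MKO stood above the other 2 of its group. Foxm1 fell by 2.15 on the log2 scale (SE 0.36, adjusted p = 0.00316) in F4MKO + FSTL1 against F4MKO livers.

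Aurka, Aurora kinase A at the centrosomes, was the exception among the regulators. Its counts were 114, 124 and 107 in Flox, 162, 129 and 131 in F4MKO, and 64, 79 and 86 in F4MKO + FSTL1 libraries. The F4MKO + FSTL1 libraries were the lowest of all 9, but the difference was small. Aurka had a log2 fold change of -0.54 (SE 0.17, adjusted p = 0.0412), a 1.45-fold lower level that stayed under the fold threshold. Melk and Nek2, a pair of mitotic kinases, had log2 fold changes of -2.14 and -1.61 and were both called, Nek2 with an adjusted p of 0.0475.

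In the spindle checkpoint and APC/C group, 6 of 7 genes fell in F4MKO + FSTL1 against F4MKO livers, and Pttg1 went the other way. Cdc20, the activator that the checkpoint holds back from the APC/C, had 46, 144 and 90 counts in Flox, 218, 134 and 163 in F4MKO, and 11, 13 and 14 in F4MKO + FSTL1 libraries. Flox was the most uneven group, with replicate 2 above replicate 2 of F4MKO, while the F4MKO + FSTL1 libraries were alike and low. Its level fell from 6.61 ± 1.05 to 0.623 ± 0.109 CPM (SD, n = 3 each), a 10.6-fold difference (log2 fold change -3.40, SE 0.37, adjusted p = 0.000829). Mad2l1, the checkpoint protein Mad2, had 92, 140 and 114 counts in Flox, 218, 142 and 176 in F4MKO, and 74, 65 and 69 in F4MKO + FSTL1 libraries. It remained expressed in every liver, and the fall was smaller, with a log2 fold change of -1.02 (SE 0.17, adjusted p = 0.00309). Bub1, a checkpoint kinase, had 0, 0 and 3 counts in F4MKO + FSTL1 against 26, 28 and 20 in F4MKO libraries, at least 6.55-fold lower. Bub1b, Ttk and Ube2c had log2 fold changes of -1.49, -2.96 and -2.37 in this comparison, each called.

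Pttg1 encodes securin, the protein whose destruction frees separase at anaphase. Its counts were 873, 955 and 927 in Flox, 851, 745 and 940 in F4MKO, and 804, 954 and 914 in F4MKO + FSTL1 libraries. These raw counts overlapped. After scaling with TMM factors, all F4MKO libraries lay below those of both other groups, by a narrow margin. With scaling by total counts alone the groups overlapped, so this separation depends on the factors, the highest of which was 1.17 in replicate 1 of F4MKO. The scaled levels were 39.7 ± 1.22 CPM in Flox, 32.9 ± 4.0 CPM in F4MKO and 43.7 ± 5.41 CPM in F4MKO + FSTL1 livers (SD, n = 3 each). Its log2 fold change was 0.41 (SE 0.11, adjusted p = 0.0278) in F4MKO + FSTL1 against F4MKO livers and -0.27 (SE 0.11, adjusted p = 0.267) in F4MKO against Flox livers. The first difference was under 1.5-fold, so the gene was not called.

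The chromosomal passenger complex, which corrects wrong attachments and sets the cleavage plane, fell in all of its 4 genes. The falls of Incenp, Birc5 and Cdca8 were among the smaller ones. Incenp, the scaffold of the complex, had 82, 92 and 82 counts in Flox, 156, 106 and 122 in F4MKO, and 42, 52 and 42 in F4MKO + FSTL1 libraries. The 3 groups did not overlap, and replicates within Flox and F4MKO + FSTL1 were close. Incenp fell by 1.16 on the log2 scale (SE 0.17, adjusted p = 0.00182). Birc5, survivin, had 47, 96 and 57 counts in Flox, 101, 95 and 109 in F4MKO, and 37, 33 and 35 in F4MKO + FSTL1 libraries. Replicate 2 of Flox reached the F4MKO level. Birc5 fell by 1.21 on the log2 scale (SE 0.24, adjusted p = 0.00613). Cdca8, borealin, had 32, 55 and 38 counts in Flox, 81, 79 and 53 in F4MKO, and 16, 22 and 22 in F4MKO + FSTL1 libraries, and it fell by 1.49 (SE 0.28, adjusted p = 0.00448). Aurkb, the kinase of the complex, had 53, 38 and 32 counts in F4MKO and 0, 6 and 7 in F4MKO + FSTL1 libraries, with a log2 fold change of -2.86 (SE 0.53, adjusted p = 0.00427).

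**Figure D3:**
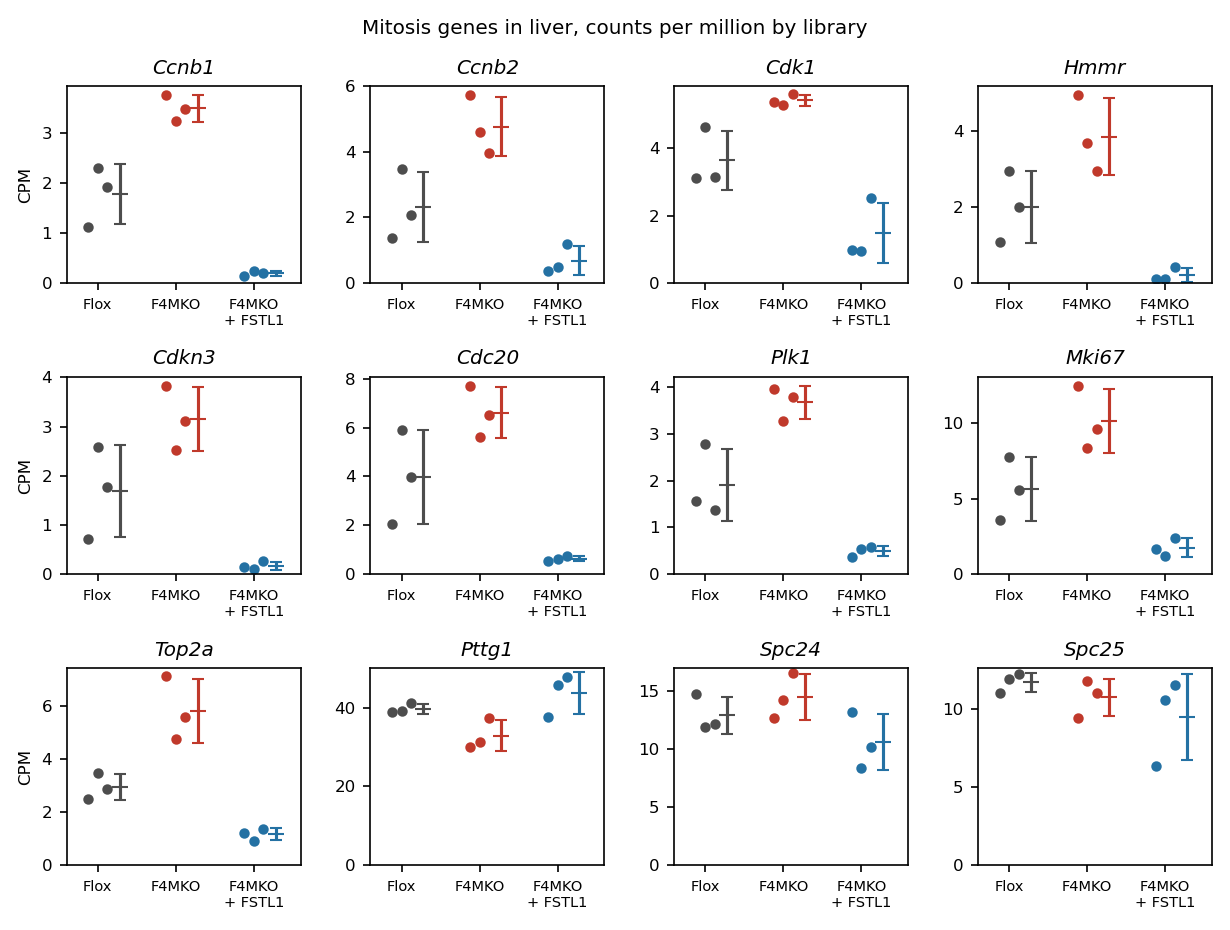
CPM of 12 of the genes in each liver, 1 panel per gene, with a point for each library and a bar for the mean and SD of 3 mice, on axes that start at 0. Ccnb1 averaged 3.48 CPM in F4MKO and 0.196 CPM in F4MKO + FSTL1 livers, while the group means of Pttg1 lay between 32.9 and 43.7 CPM.

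At the kinetochore, 5 of 7 genes were called lower in F4MKO + FSTL1 against F4MKO livers, and all 7 had negative log2 fold changes. Ndc80, among those called, passed the filter on low counts only through the F4MKO group. Subunits of a single complex differed in the size of the change. Ndc80 and Nuf2 form one arm of the NDC80 complex, and Spc24 and Spc25 form the other. Spc24 had 330, 289 and 273 counts in Flox, 357, 339 and 414 in F4MKO, and 282, 174 and 195 in F4MKO + FSTL1 libraries. Its groups overlapped after scaling in each comparison, and the log2 fold change was -0.45 (SE 0.17, adjusted p = 0.0848). Spc25 had 247, 290 and 275 counts in Flox, 267, 281 and 276 in F4MKO, and 136, 220 and 221 in F4MKO + FSTL1 libraries. Replicate 1 of F4MKO + FSTL1 was the lowest of all, and the groups overlapped. Its log2 fold change was -0.18 (SE 0.19, adjusted p = 0.534), and it turned to 0.05 without that library. Nuf2 had 53, 32 and 34 counts in F4MKO and 6, 3 and 6 in F4MKO + FSTL1 libraries (log2 fold change -2.62, SE 0.35, adjusted p = 0.0014). Ndc80 had 24, 13 and 16 counts in F4MKO and 1, 1 and 2 in F4MKO + FSTL1 libraries, at least 4.61-fold lower. Per kilobase of exon, Spc24 and Spc25 stood at 5.01 and 3.67 CPM in Flox livers, and Nuf2 and Ndc80 at 0.167 and 0.0593 CPM.

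Cenpa, the histone H3 variant that marks centromeres, had 128, 165 and 160 counts in Flox, 194, 169 and 174 in F4MKO, and 78, 90 and 101 in F4MKO + FSTL1 libraries. Flox and F4MKO livers overlapped, and F4MKO + FSTL1 livers lay below both. The log2 fold change was -0.66 (SE 0.16, adjusted p = 0.0151) against F4MKO livers, and the call was lost without replicate 1 or replicate 2 of F4MKO + FSTL1, with adjusted p-values of 0.0542 and 0.0577. Cenpe, a kinesin of the outer kinetochore, and Cenpf, which binds kinetochores in mitosis, had log2 fold changes of -2.24 and -2.76 and were both called.

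Spindle genes fell in all 8 cases that could be tested. Kif15 and Kif18b, among these 8, passed the filter on low counts only through the F4MKO group. Hmmr, a spindle-associated protein and hyaluronan receptor, had the lowest fitted log2 fold change of the 49 genes tested. It had 24, 72 and 45 counts in Flox, 140, 88 and 74 in F4MKO, and 2, 2 and 8 in F4MKO + FSTL1 libraries. F4MKO + FSTL1 libraries lay far below both other groups. Against F4MKO livers the log2 fold change was -4.26 (SE 0.53, adjusted p = 0.00116), and the mean level fell from 3.86 ± 1.01 to 0.202 ± 0.187 CPM (SD, n = 3 each). Tpx2, which activates Aurora A on the spindle, had 40, 86 and 61 counts in Flox, 149, 98 and 100 in F4MKO, and 13, 13 and 19 in F4MKO + FSTL1 libraries. All 3 groups were apart here too. Tpx2 fell by 2.59 on the log2 scale (SE 0.30, adjusted p = 0.000988).

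Nusap1, which bundles spindle microtubules, had 27, 49 and 30 counts in Flox, 89, 71 and 71 in F4MKO, and 19, 26 and 19 in F4MKO + FSTL1 libraries. F4MKO livers stood above both other groups, and Flox and F4MKO + FSTL1 livers overlapped. Nusap1 had log2 fold changes of -1.51 (SE 0.25, adjusted p = 0.00273) in F4MKO + FSTL1 against F4MKO livers, 0.97 (SE 0.24, adjusted p = 0.0864) in F4MKO against Flox livers, and -0.54 (SE 0.26, adjusted p = 0.408) in F4MKO + FSTL1 against Flox livers. Of the kinesins, Kif18b had 2, 1 and 1 counts in F4MKO + FSTL1 against 31, 24 and 23 in F4MKO libraries, at least 6.85-fold lower. Kif15, Kif2c and Kif4 had log2 fold changes of -1.95, -2.76 and -1.71, and Aspm, a spindle pole protein, had -1.75, each called. The calls on Kif15 and Kif18b give no separate support, because of how they passed the filter. Kif11, the kinesin that pushes spindle poles apart, was not tested. Its counts were 3, 7 and 7 in Flox, 37, 10 and 8 in F4MKO, and 4, 1 and 4 in F4MKO + FSTL1 libraries, so that replicate 1 of F4MKO alone stood out.

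All 7 cytokinesis genes fell in F4MKO + FSTL1 against F4MKO livers, with a median log2 fold change of -2.13. Prc1 cross-links the microtubules of the central spindle. It had 46, 77 and 46 counts in Flox, 162, 119 and 103 in F4MKO, and 27, 20 and 22 in F4MKO + FSTL1 libraries. The 3 groups did not overlap. Prc1 fell by 2.13 on the log2 scale (SE 0.24, adjusted p = 0.000946), and in F4MKO against Flox livers its value was 1.03 (SE 0.22, adjusted p = 0.0624). Ect2, the exchange factor that activates RhoA at the cleavage furrow, had 28, 73 and 40 counts in Flox, 138, 74 and 93 in F4MKO, and 17, 17 and 18 in F4MKO + FSTL1 libraries. The F4MKO + FSTL1 libraries were nearly equal, while replicate 2 of Flox neared replicate 2 of F4MKO. Ect2 fell by 2.20 (SE 0.33, adjusted p = 0.00187). Racgap1, the centralspindlin subunit that recruits Ect2, had 25, 90 and 54 counts in Flox, 123, 76 and 100 in F4MKO, and 16, 10 and 13 in F4MKO + FSTL1 libraries, and it fell by 2.59 (SE 0.40, adjusted p = 0.00206). Kif20a, Kif23, Anln and Cep55 were called too, with log2 fold changes from -2.19 to -1.57.

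Genes of chromosome structure and the proliferation marker Ki-67 followed the same order of groups. Mki67, which coats mitotic chromosomes and is widely used to count cycling cells, had 80, 190 and 126 counts in Flox, 353, 199 and 240 in F4MKO, and 35, 25 and 46 in F4MKO + FSTL1 libraries. Replicate 2 of Flox and replicate 2 of F4MKO were close, and the F4MKO + FSTL1 libraries lay below all others. The level was 5.65 ± 2.11 CPM in Flox, 10.1 ± 2.13 CPM in F4MKO and 1.75 ± 0.608 CPM in F4MKO + FSTL1 livers (SD, n = 3 each). It was 5.80-fold lower in F4MKO + FSTL1 than in F4MKO livers (log2 fold change -2.54, SE 0.31, adjusted p = 0.00116), and 0.84 (SE 0.28, adjusted p = 0.170) in F4MKO against Flox livers. Top2a, the topoisomerase that untangles chromosomes, had 56, 85 and 65 counts in Flox, 202, 114 and 140 in F4MKO, and 26, 19 and 26 in F4MKO + FSTL1 libraries. Again no group overlapped with another. Top2a fell by 2.33 (SE 0.24, adjusted p = 0.000638), and its value was 0.98 (SE 0.21, adjusted p = 0.0624) in F4MKO against Flox livers.

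Smc2, a core condensin subunit, had 51, 78 and 67 counts in Flox, 127, 93 and 74 in F4MKO, and 49, 44 and 30 in F4MKO + FSTL1 libraries. It remained well expressed in all livers, and Flox overlapped with both other groups. Smc2 fell by 0.92 on the log2 scale (SE 0.23, adjusted p = 0.0172) against F4MKO livers, and the call was lost without replicate 1 of F4MKO, replicate 2 of F4MKO + FSTL1 or replicate 3 of F4MKO + FSTL1, with adjusted p-values from 0.0523 to 0.0742. Ncapg and Ncaph, condensin subunits as well, had log2 fold changes of -3.24 and -1.17 and were called.

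Levels differed widely between the genes. Per kilobase of exon, Pttg1 stood at 19.9 CPM in Flox livers, followed by Spc24 and Spc25 at 5.01 and 3.67, Cdc20 at 2.13, Aurka at 1.96 and Ccnb2 at 1.51 CPM. Kif11 was the lowest at 0.0327 CPM per kilobase. The number of genes under 1 CPM on average was 14 in Flox, 7 in F4MKO and 35 in F4MKO + FSTL1 livers. At such levels counting error is large, and differences of the lowest genes were given by their counts. Exons of 14 of the 50 genes overlap those of another gene, most for Kif20a with Cdc23 (29.3%) and Ube2c with Tnnc2 (22.8%). On opposite strands, reads there cannot be assigned without strand, whose use is not given in the sources used here. Foxm1 and Top2a overlap genes on their own strand, where strand does not help. Pttg1, Spc24 and Spc25 had no such overlap.

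Other cell cycle genes were taken from lists written from knowledge of the pathways, with earlier results of these data known. Of 52 further G2 and mitosis genes, 47 were tested and 30 were called lower in F4MKO + FSTL1 against F4MKO livers. Of all tested genes, 11.2% were called lower there. The median log2 fold change of the 47 was -1.46. None of the 47 was called in F4MKO against Flox livers. There 19 were higher at an unadjusted p under 0.05, against 9.35% of all tested genes, and the median was 0.61. Ckap2l, a spindle protein, fell by 3.24 and Depdc1a by 3.42 on the log2 scale. Knl1, a kinetochore scaffold, had 15, 12 and 15 counts in F4MKO and 0, 1 and 1 in F4MKO + FSTL1 libraries, at least 3.70-fold lower, and Parpbp was at least 3.81-fold lower. Depdc1a, Knl1 and Parpbp passed the filter on low counts only through the F4MKO group, so their calls give no separate support. How many of the 47 did so was not counted. In F4MKO + FSTL1 against F4MKO livers 42 of the 47 had values below 0 and 5 above. Of those above, 3 were higher at an unadjusted p under 0.05 and none was called. They were Ccnf (0.57), Wee1 (0.59) and Hjurp (0.26) on the log2 scale, named after their values were seen. Of 31 tested genes of the G1/S transition and DNA replication, 6 were called lower, against 11.2% of all tested genes, and 2 higher. Their median was -0.33. The share of all tested genes higher in F4MKO + FSTL1 against F4MKO livers, whether called or at an unadjusted p under 0.05, was not counted. Those lower included Gins2 (-2.20), Uhrf1 (-1.66) and Mcm5 (-1.61), and those higher were Mcm10 (1.60) and Tk1 (0.89) on the log2 scale. Of 19 E2F, pocket protein and MuvB genes, E2f2 (-1.30) and Rbl1 (-0.79) were called lower, against 11.2% of all tested genes. The median of the list was 0.08. Of 18 genes of the APC/C core and cohesin, which are also used outside mitosis, none was called by edgeR. At an unadjusted p under 0.05, 2 were lower, against 19.5% of all tested genes, and 4 were higher. Their median was close to 0. Anapc5 and Anapc2, the most abundant of them, had log2 fold changes of -0.04 and -0.20.

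Of 10 tested D cyclins, their kinases and Cdk inhibitors, 2 were called lower in F4MKO + FSTL1 against F4MKO livers, against 11.2% of all tested genes. Ccnd1, cyclin D1, which links growth signals to the cell cycle, was also called higher in F4MKO against Flox livers. It had 310, 621 and 372 counts in Flox, 1744, 1274 and 1316 in F4MKO, and 205, 90 and 193 in F4MKO + FSTL1 libraries. The 3 groups did not overlap. The log2 fold change was 1.59 (adjusted p = 0.0404) in F4MKO against Flox livers and -2.81 (SE 0.29, adjusted p = 0.000665) in F4MKO + FSTL1 against F4MKO livers. Cdkn1a, the Cdk inhibitor p21, which restrains the cycle, had the same order of group means, with 538, 656 and 244 counts in Flox, 1311, 1330 and 707 in F4MKO, and 148, 119 and 225 in F4MKO + FSTL1 libraries. It fell by 2.42 (SE 0.37, adjusted p = 0.00199) in the second comparison, and in the first its value was 1.08 (adjusted p = 0.157).

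Markers of several liver cell types moved with the mitotic genes in F4MKO + FSTL1 against F4MKO livers, and their part in the result was not tested. Of all genes tested, 11.2% were called lower in this comparison. Of 12 macrophage markers, 8 were called lower, with Gpnmb at -2.65, Trem2 at -2.44, Ccr2 at -1.30 and Itgam at -1.25 on the log2 scale. Those not called were the Kupffer cell markers Clec4f (-0.29), Vsig4 (-0.41), Marco (0.08) and Timd4 (0.51), named after their values were seen. The summed level of the 12 ran from 444 to 723 CPM in Flox, 533 to 634 CPM in F4MKO and 262 to 411 CPM in F4MKO + FSTL1 livers. Of 10 stellate cell markers, 6 were called lower, led by Col1a1 (-2.25), Col3a1 (-1.98), Col1a2 (-1.63) and Pdgfrb (-0.88), with sums of 447 to 519, 601 to 760 and 295 to 410 CPM. For the same comparison the study reports the reverse, with more macrophages by staining and more fibrosis by staining and qPCR. The reason for this difference was not tested. Of 6 tested cholangiocyte markers, 4 were called lower, with sums of 69.9 to 107, 181 to 457 and 54.2 to 70.1 CPM over all 8, and the called genes were Spp1 (-2.64), Epcam (-2.58), Krt7 (-1.93) and Krt19 (-1.87). Gpnmb, Spp1 and Epcam were also called higher in F4MKO against Flox livers, with log2 fold changes of 1.70, 2.05 and 2.01. The other macrophage markers were not called in that comparison, where 8 of the 12 had values above 0 and 4 below, with a median of 0.11, and Marco and Timd4 had values of -1.41 and -1.26 (adjusted p = 0.139 and 0.153, edgeR). Endothelial markers gave 0 calls of 10, with 2 higher at an unadjusted p under 0.05, and sums of 309 to 377, 262 to 316 and 277 to 336 CPM. Eng and Stab2, the most abundant of them, had adjusted p-values of 0.984 and 0.839.

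**Figure D4:**
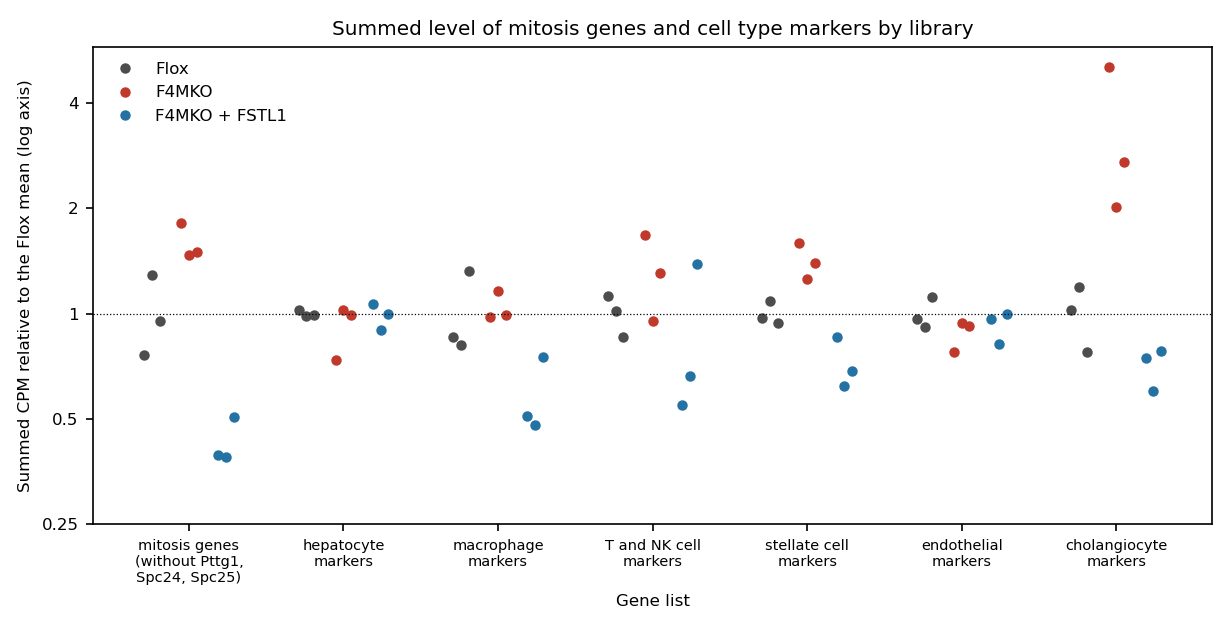
Summed CPM of the mitotic genes without Pttg1, Spc24 and Spc25 and of 6 marker lists, relative to the Flox mean of each, on a log axis, with a point for each library coloured by group and a dotted line at the Flox mean. Mitotic genes, stellate cell and cholangiocyte markers lie above the Flox libraries in all 3 F4MKO livers, and replicate 1 of F4MKO is the highest for each of them and the lowest for hepatocyte markers.

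Lymphocyte markers were scarce. T and NK cell markers summed to 6.17 to 8.07 CPM in Flox, 6.83 to 12.1 CPM in F4MKO and 3.92 to 9.92 CPM in F4MKO + FSTL1 livers. In F4MKO + FSTL1 against F4MKO livers 0 of 9 were called. At an unadjusted p under 0.05, 3 were lower, against 19.5% of all tested genes. Nkg7 and Cd8a, the most abundant, had log2 fold changes of -0.38 and -0.35. B and plasma cell markers summed to 8.69 to 14.2, 7.71 to 16.5 and 5.89 to 9.98 CPM, and 0 of 6 were called by edgeR, with 0 at an unadjusted p under 0.05 and values of -0.45 for Jchain and -0.74 for Cd79a. Of 8 tested neutrophil and erythroid markers, Csf3r (-1.03) and Tfrc (-0.81) were called lower, against 11.2% of all tested genes. Klf1 (0.96) and Alas2 (0.62) were called higher. Ly6g, which defines neutrophils, had at most 3 counts in any library. Of 12 hepatocyte markers, Cyp2e1 (1.13) and Serpina1a (0.68) were called higher. The share of all tested genes called higher in this comparison was not counted, so the markers called higher cannot be set against it. Which cells carried the mitotic transcripts was not measured.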

How the data were processed

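Liver RNA of 9 mice was sequenced as 150 bp paired-end reads. The authors trimmed reads with Trim Galore 0.6.7, mapped them to mm10 with HISAT2 2.2.1 and counted them on genes with featureCounts 2.0.1, per the labels and the submitters' processing notes. The values they deposited are raw counts, neither scaled nor filtered by level. The annotation and the use of strand are not given in the sources used here. The group labelled WT was taken as Flox.

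Counts were analysed with edgeR 4.0.16 in R 4.3.3. Genes were kept by filterByExpr (minimum count 10, minimum total 15, in 3 libraries), which left 14379 of 24008, and scaled by TMM factors from 0.927 to 1.17. Group means were fitted by quasi-likelihood to all 9 libraries together, without further covariates. Adjusted p-values are Benjamini-Hochberg over all tested genes, and a gene was called at an adjusted p under 0.05 with a fold change above 1.5. The common coefficient of variation was 0.150. Each library is a separate mouse, and no 2 libraries of a group agreed within sampling noise. Levels in CPM carry the SD over 3 mice. The 50 genes and the other lists were chosen with earlier results of these data known, so no p-value is given for a list as a whole. Genes given with all their counts were the 3 most abundant of each role, the 2 with the largest and the 2 with the smallest change in F4MKO + FSTL1 against F4MKO livers, and those called in either other comparison. Of each other list, at most the 4 called genes with the largest change were named, or else the 2 most abundant. Other genes are described by ranges and counts, or were chosen after their values were seen. Gene lengths and exon overlaps came from GENCODE vM21 (GRCm38), and promoters from RefSeq on GRCm38.p6. Cdc45, Trac and Ighm were not analysed here.

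Alternatives were DESeq2 1.42.0, edgeR with the size factors of DESeq2, all listed genes without a filter, a filter blind to the groups (a mean of at least 5 counts), only the 6 libraries compared, the replicate number as a block, no fold-change threshold, each library left out in turn, CPM without TMM factors, and a shorter promoter window.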

Additional observations from a re-analysis of the deposited data

How the results depend on the processing

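In F4MKO + FSTL1 against F4MKO livers, between 40 and 46 of the mitotic genes were called lower under every alternative run, against 6.54 to 13.1% of tested genes, and the median log2 fold change lay between -2.39 and -1.97 when 1 library was left out. In F4MKO against Flox livers, 4 genes were called higher by DESeq2 (1.06% of tested genes), 6 without a filter on low counts (1.4%), 1 with the replicate number as a block (0.73%), and 0 under the other alternatives, including each library left out in turn (0 to 0). In F4MKO + FSTL1 against Flox livers, 26 were called lower by DESeq2 (0.975%), 28 without a filter (1.24%), 0 with only the 6 libraries compared (0% of tested genes, with 34 of the mitotic genes lower at an unadjusted p under 0.05), and 0 to 11 when 1 library was left out (0 to 0.518%). The cause of these differences was not tested. The median log2 fold change in F4MKO against Flox livers lay between 0.50 and 1.04 when 1 library was left out, and that in F4MKO + FSTL1 against Flox livers between -1.59 and -1.13. The log2 fold change of Spc25 in F4MKO + FSTL1 against F4MKO livers lay between -0.34 and 0.046 when 1 library was left out, and it turned positive (adjusted p = 0.842, edgeR's quasi-likelihood test) without replicate 1 of F4MKO + FSTL1.

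Without TMM factors the mean summed level in F4MKO livers was 222 CPM. In the 150 bases up to the start, 33.3% of the genes held a CHR and 23.8% both CHR and CCAAT. For the 26 genes given with all their counts, 382 of 390 values in F4MKO against Flox, 382 of 390 in F4MKO + FSTL1 against F4MKO and 344 of 390 in F4MKO + FSTL1 against Flox livers kept their direction and their side of the threshold. Deviations from the group means correlated between libraries of the same number at 0.111, 0.092 and 0.304 in F4MKO + FSTL1 against F4MKO livers and at 0.082, 0.042 and 0.169 in F4MKO against Flox livers, so the numbers were not taken as pairs. With the replicate number as a block, 1, 44 and 1 genes were called for F4MKO against Flox, F4MKO + FSTL1 against F4MKO, and F4MKO + FSTL1 against Flox livers, with medians of 0.73, -2.17 and -1.36. With 3 mice per group and 35 genes under 1 CPM in F4MKO + FSTL1 livers, the size of the largest falls is the least certain.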
